A study of Homo sapiens with 16 samples.

Results

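The 40 genes described here are ATF4, the transcription factor at the centre of the integrated stress response, and genes it is known for: partner and downstream transcription factors, feedback and stress effectors, secreted or surface proteins, enzymes that make amino acids, amino acid transporters, and cytosolic tRNA ligases. They were taken by symbol from tables of 60658 Ensembl genes. Each of the 40 symbols was found, and none stood on more than 1 row. The RNA came from the MDA-MB-231 cell line, derived from a human triple-negative breast tumour, as BMAL1 -/- cells (KO) and as wild type cells (WT), and was read by RNA-seq. BMAL1 is the circadian transcription factor encoded by ARNTL. Each genotype was given cisplatin, which crosslinks DNA, doxorubicin, an intercalating topoisomerase poison, or tunicamycin, an inhibitor of N-glycosylation that causes protein misfolding in the endoplasmic reticulum, or was kept as control. There were 16 samples in 8 groups of 2 biological replicates, at passages that the labels give as one range for every sample. The sources used here give neither doses and times, nor the way BMAL1 was deleted, nor the number of clones behind the KO line.

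The integrated stress response starts when eIF2 is phosphorylated by PERK (endoplasmic reticulum stress), GCN2 (uncharged tRNA), PKR (double-stranded RNA) or HRI (haem lack and mitochondrial stress). General translation then drops, while ATF4 mRNA is translated more, because short upstream reading frames no longer hold the ribosome. ATF4 protein, as a dimer with C/EBP factors, binds composite elements near genes for amino acid synthesis, transport and tRNA charging, and with CHOP (DDIT3) it drives the feedback phosphatase subunit GADD34 (PPP1R15A). The values below are mRNA only. ATF4 protein, eIF2 phosphorylation and translation were not measured here.

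The deposited tables, 1 per treatment, hold 1 FPKM value per group, made from both replicates (fragments scaled to transcript length and to library depth). The spread between the replicates is therefore hidden, and no value below carries an error. FPKM is a level per length, and levels set side by side across treatments come from tables normalized separately. ARNTL itself was at 0.889 FPKM in KO and 5.67 FPKM in WT control cells (authors' q 0.000213), 0.941 and 1.26 in KO and WT under cisplatin (q 0.467), 0.474 and 1.31 under doxorubicin (q 0.00509), and 2.24 and 3.25 under tunicamycin (q 0.0810), so residual ARNTL reads were present in KO cells in each table. The mesenchymal markers VIM, CD44, MSN and AXL were above 1 FPKM in each group, with summed levels of 3448 to 7863 FPKM in KO and 4990 to 7854 FPKM in WT groups. Of 6 genes listed as low in this line, PGR was listed at 0 in each group and ESR1 and CDH1 stayed under 1 FPKM. The other 3 did not stay low: ERBB2 had 7.11 to 18.5 FPKM in KO and 11.4 to 25.5 in WT groups, EPCAM 1.03 to 2.07 and 3.93 to 6.33, and GATA3 0.320 to 5.48 and 0.111 to 1.63. The 7 luminal markers summed to 842 to 1461 FPKM in KO and 676 to 1258 in WT groups, nearly all of it KRT8 and KRT18. The extraction protocol speaks of fibroblast lines. Of 8 fibroblast markers only COL1A1 reached 1 FPKM, in 7 of 8 groups, and DCN was listed at 0 in all. The summed level of the 8 was 1.61 to 9.78 FPKM in KO groups and 0.302 to 7.40 FPKM in WT groups. The share of summed FPKM held by mitochondrial mRNA was 3.16% to 9.37% in KO groups and 4.57% to 9.71% in WT groups, highest under doxorubicin in both. COL1A1 was higher in KO in the control, doxorubicin and tunicamycin tables, and its part in the results below was not tested.

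Promoter sequence was matched for 34 of the 40 genes in RefSeq (GRCh38.p14, 250 bases before to 50 after each gene start). NUPR1, PSPH, SHMT2, PYCR1, GPT2 and SLC7A11 had no entry. The window was searched on both strands for TGATGNAA, the core of the C/EBP-ATF composite element, where N is any base. A match stood in 13 of the 34 genes (38.2%), beside 1217 of 27305 genes in the whole table (4.46%). Counted by promoter, a match stood in 13 of 55 (23.6%), beside 3.62% of all promoters. Its TGATGCAA form, which is counted within it, stood in 9 of the 34 (26.5%), beside 1.08% of all genes. The tRNA ligases had a match in 5 of 8 genes and the transporters in 3 of 5. The cAMP response element TGACGTCA, which does not overlap it, was found in PPP1R15A alone, beside 2.25% of all genes. A match describes these letters in this window and is not a site shown to be bound. The 40 genes were chosen as ATF4 and genes it is known for, so the members' shares describe that choice, with no test. The 250 bases before the start of ASNS, asparagine synthetase, at chr7:97872409-97872658 on the minus strand, are shown since ASNS is the synthesis enzyme whose response to tunicamycin differed most between the genotypes. The capitals mark the match, at positions -68 to -61 from the start.
ASNS: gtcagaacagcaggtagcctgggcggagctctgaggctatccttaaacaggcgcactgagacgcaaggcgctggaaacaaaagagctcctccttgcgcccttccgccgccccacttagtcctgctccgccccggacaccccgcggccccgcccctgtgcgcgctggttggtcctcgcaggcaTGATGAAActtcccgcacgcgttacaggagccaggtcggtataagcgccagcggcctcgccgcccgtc

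The tRNA ligases and transporters held most of the matches. They are given here with CHAC1, the feedback gene with the highest response to tunicamycin in KO cells, and CEBPG, each as 30 bases (24 in SLC3A2) on the strand of the gene, 5′ to 3′. Capitals mark TGATGNAA or its reverse complement. They lie at chr15:40953251-40953280 (CHAC1, plus strand), chr19:33374060-33374089 (CEBPG, plus), chr2:64989381-64989410 (SLC1A4, plus), chr19:46784893-46784922 (SLC1A5, minus), chr11:62881725-62881748 (SLC3A2, plus), chr7:30594834-30594863 (GARS, plus), chr16:70289675-70289704 (AARS, minus), chr12:57488053-57488082 (MARS, plus), chr18:57621804-57621833 (NARS, minus) and chr11:3057407-3057436 (CARS, minus).
CHAC1: ctcccctgccgTTGCATCActcctgccagg
CEBPG: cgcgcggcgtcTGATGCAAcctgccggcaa
SLC1A4: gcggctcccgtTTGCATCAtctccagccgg
SLC1A5: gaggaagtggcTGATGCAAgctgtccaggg
SLC3A2: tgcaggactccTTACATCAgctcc
GARS: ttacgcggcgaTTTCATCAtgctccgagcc
AARS: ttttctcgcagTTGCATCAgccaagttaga
MARS: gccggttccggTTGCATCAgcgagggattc
NARS: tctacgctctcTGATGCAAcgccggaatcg
CARS: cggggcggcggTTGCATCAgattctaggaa

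**Figure D1:**
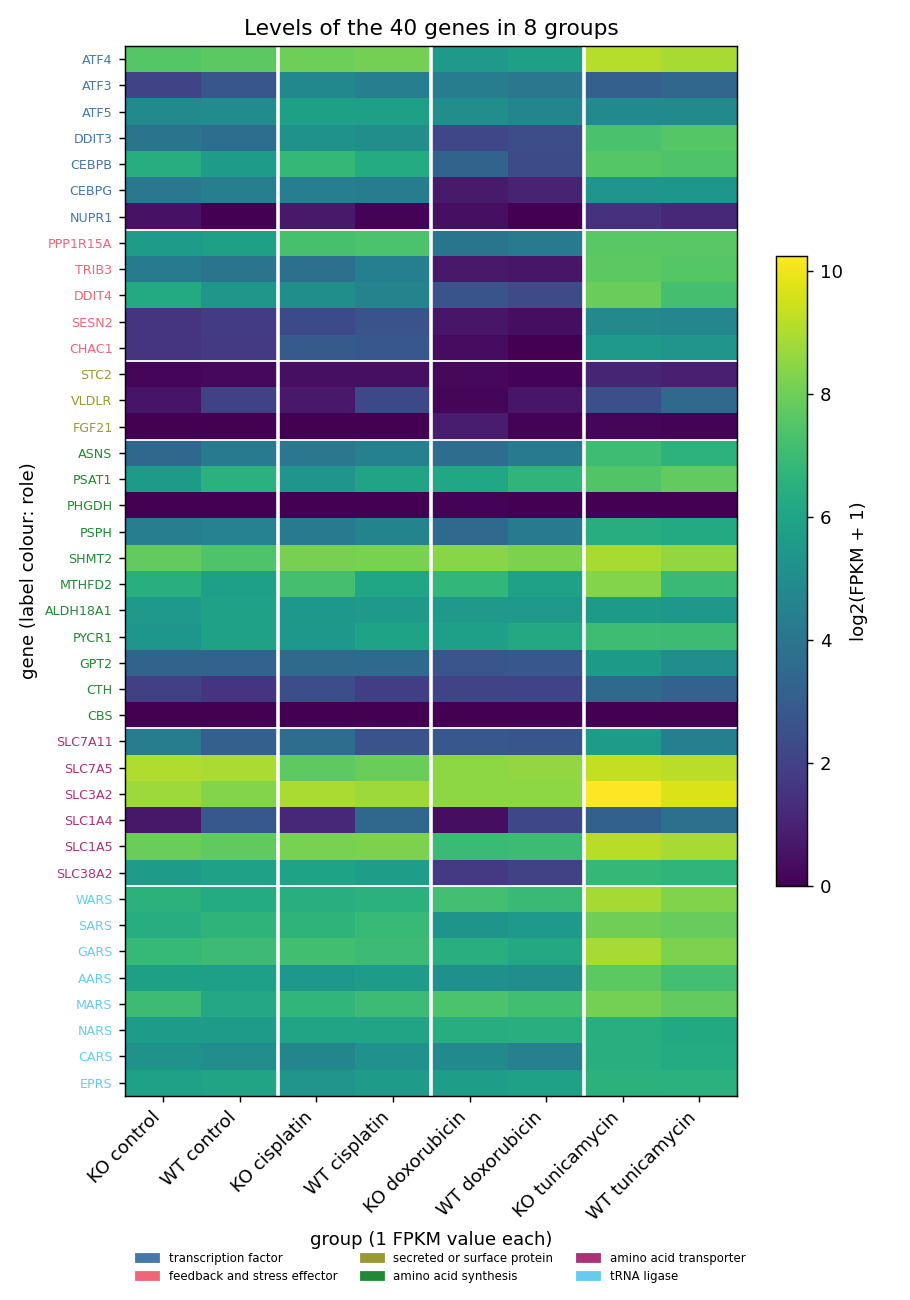
Heat map of log2(FPKM + 1) of the 40 genes (rows, label colour by role) in the 8 groups (columns, KO left of WT within each treatment), 1 value per group. SLC3A2 under tunicamycin is the brightest cell (1212 FPKM in KO, 826 in WT), while PHGDH and CBS stay at or near 0 in every column.

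The members differed widely in level. SLC3A2, SLC7A5, SLC1A5, SHMT2 and ATF4 lay above 100 FPKM in control cells of both genotypes, at 185 (ATF4) to 520 (SLC7A5) FPKM in KO and 173 (SHMT2) to 497 (SLC7A5) FPKM in WT cells. Some members gave almost no signal. PHGDH, which makes the starting step of serine synthesis, was listed at 0 in control and cisplatin cells of both genotypes and at no more than 0.0579 FPKM elsewhere, while the enzymes after it in the pathway, PSAT1 and PSPH, were at 47.1 and 20.1 FPKM in KO and 91.7 and 22.5 FPKM in WT control cells. CBS, of the transsulfuration pathway, was listed at 0 in all 8 groups, as was its near-identical copy CBSL, so reads shared between the copies may not have been counted. FGF21, a hormone, stayed at or under 0.701 FPKM in KO and 0.0834 FPKM in WT groups. STC2, a secreted glycoprotein, reached 1.09 FPKM in KO and 0.880 in WT cells under tunicamycin and stayed lower elsewhere.

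KO cells were set against WT cells within each table by the authors' test, where a gene was called if its q was at most 0.05. Under tunicamycin most called members were higher in KO cells (21 higher, 4 lower, 37 tested), beside 27.2% of all tested genes called higher and 22.1% called lower. In the other tables the members split: 10 were higher and 12 lower of 35 in control (all genes 22.7% and 21.1%), 9 and 16 of 36 under cisplatin (25.4% and 24.2%), and 8 and 11 of 33 under doxorubicin (24.4% and 20.7%). Most of these differences were small. The median log2 ratio of the members, KO over WT in the authors' deposited tables, was -0.10 in control, -0.06 under cisplatin, -0.02 under doxorubicin and 0.17 under tunicamycin, beside 0.01, 0.02, 0.04 and 0.04 over all tested genes. CEBPB, VLDLR, MTHFD2, SLC7A11 and SLC1A4 were the members called with at least a 2-fold difference in any table. Called genes are commoner among well expressed ones: with FPKM of 5 or more in KO or WT cells, 36.1% of all tested genes were called higher under tunicamycin, and the members' count there was still 21. In bulk RNA, fewer cells of a type and less RNA per cell cannot be told apart.

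Of the 32 members tested in all 4 tables, 11 were called in opposite directions in different tables (34.4%), beside 12.9% of all genes tested in all 4. Calls are commoner among well expressed genes, and the share among genes of like FPKM was not computed. The 11 members were ATF4, DDIT3, TRIB3, ASNS, SLC7A5, SLC38A2, SARS, GARS, AARS, MARS and CARS. Of these, 9 were higher in KO under tunicamycin and lower in at least 1 other table. The share of all genes with that pattern was not computed. CEBPB, DDIT4 and MTHFD2 were higher in KO in all 4 tables (background 9%), and PSAT1 and SLC1A4 were lower in all 4 (background 8.66%). NUPR1, STC2, FGF21, PHGDH and CBS were called in none, each tested in at most 2 tables.

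**Figure D2:**
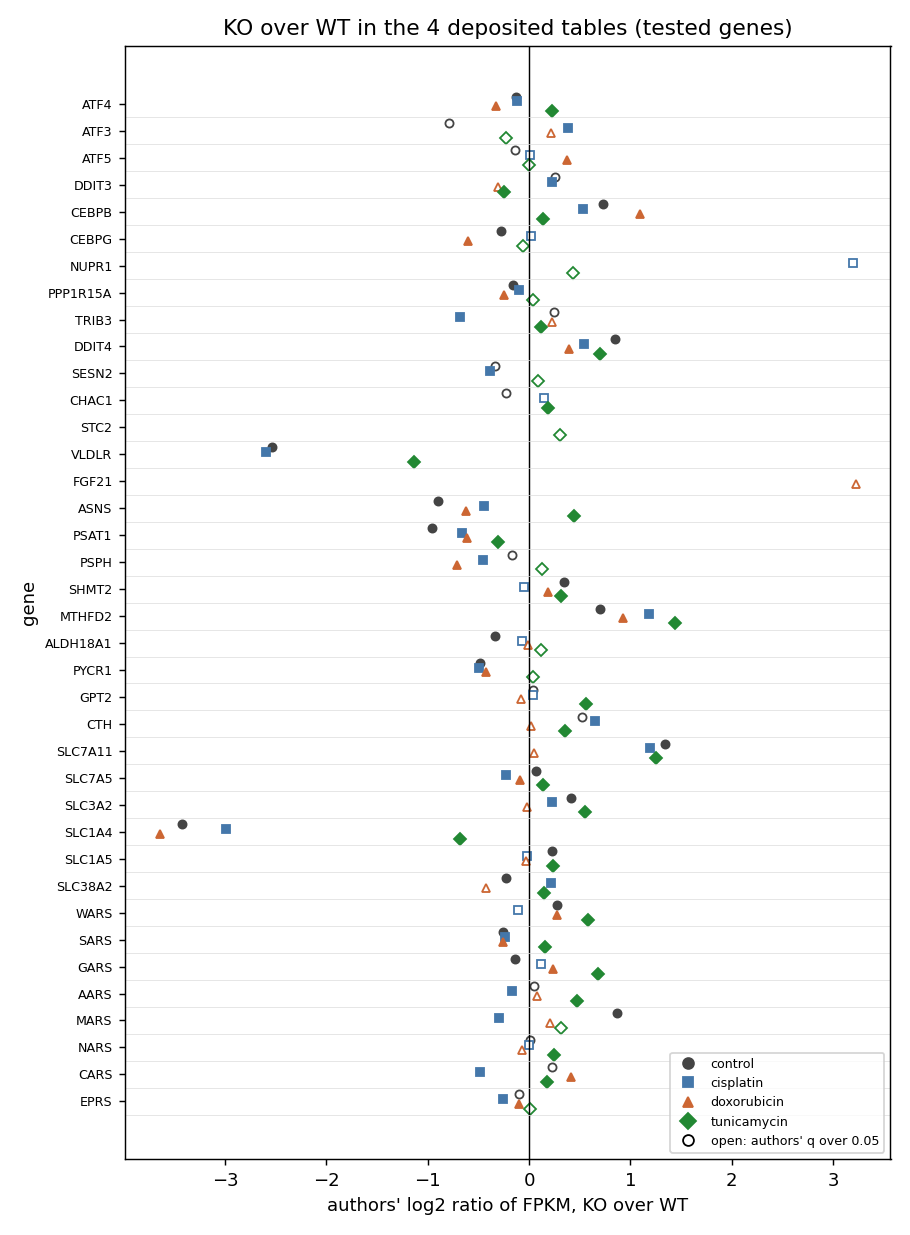
The authors' log2 ratio of FPKM, KO over WT, for each tested member (rows) in the 4 tables (marker shapes), filled where the authors' q was at most 0.05. The tunicamycin diamonds of ASNS, GARS and AARS lie right of 0 (0.44, 0.68 and 0.47), and the markers of SLC1A4 all lie left of 0.

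Among the transcription factors, ATF4 (chr22:39519695-39522685, plus strand) had 185 FPKM in KO and 202 in WT control cells, 252 and 273 under cisplatin, 44.0 and 55.2 under doxorubicin, and 552 and 473 under tunicamycin. It was thus slightly lower in KO in 3 tables and higher in the tunicamycin table. The log2 ratios in the authors' deposited tables were -0.13, -0.11, -0.33 and 0.22, with q between 0.000167 and 0.000407. CEBPB, a C/EBP factor that pairs with ATF4, had 82.4 FPKM in KO and 49.7 in WT control cells, 112 and 78.0 under cisplatin, 8.71 and 4.07 under doxorubicin, and 187 and 170 under tunicamycin. KO was higher throughout, by log2 ratios of 0.73, 0.53, 1.10 and 0.14 in the authors' deposited tables (q at most 0.000213). DDIT3, which encodes CHOP, had 14.5 FPKM in KO and 12.1 in WT control cells, 37.8 and 32.3 under cisplatin, 3.52 and 4.36 under doxorubicin, and 157 and 186 under tunicamycin. It passed the test as higher in KO under cisplatin (0.23, q 0.0101) and as lower under tunicamycin (-0.25, q 0.000173) in the authors' deposited tables. The 3′ end of DDIT3 overlaps MARS on the opposite strand over 982 bases, and whether reads were counted by strand is not given in the sources used here.

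The other factors passed in fewer tables. ATF3, a stress-induced repressor, was called under cisplatin alone, at 26.2 FPKM in KO and 20.1 in WT cells (log2 ratio 0.39 in the authors' deposited table, q 0.0163). ATF5, a relative of ATF4, was called under doxorubicin alone, at 32.0 FPKM in KO and 24.7 in WT cells (0.38 in the authors' deposited table, q 0.000186). It overlaps NUP62 over 1062 bases on the opposite strand. CEBPG, a dimer partner of ATF4, was lower in KO in control, at 16.4 FPKM in KO and 19.9 in WT cells (-0.28 in the authors' deposited table, q 0.0239), and under doxorubicin, at 0.654 and 0.995 FPKM (-0.61 in the authors' deposited table, q 0.0224).

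Among the feedback and stress effectors, DDIT4 (REDD1), an inhibitor of mTORC1, had 74.9 FPKM in KO and 41.6 in WT control cells, 33.1 and 22.7 under cisplatin, 5.31 and 4.05 under doxorubicin, and 244 and 150 under tunicamycin. KO was higher in each table, with log2 ratios of 0.85, 0.55, 0.39 and 0.70 in the authors' deposited tables and q from 0.000167 to 0.0485. PPP1R15A, the eIF2 phosphatase subunit, was slightly lower in KO in 3 tables, at 50.3 FPKM in KO and 56.1 in WT control cells, 152 and 162 under cisplatin, and 14.8 and 17.6 under doxorubicin. The log2 ratios in the authors' deposited tables were -0.16, -0.10 and -0.24 there, with q at most 0.00768. Under tunicamycin it had 199 FPKM in KO and 194 in WT cells and did not pass (q 0.0879).

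TRIB3, a pseudokinase that restrains ATF4 and AKT, had 12.6 FPKM in KO and 20.3 in WT cells under cisplatin, and 203 and 187 under tunicamycin. KO was lower in the authors' deposited table for cisplatin (-0.69, q 0.000167) and higher in that for tunicamycin (0.12, q 0.000173). SESN2, a leucine sensor, was called lower in KO under cisplatin, at 3.91 FPKM in KO and 5.10 in WT cells (-0.38 in the authors' deposited table, q 0.00730). CHAC1, which degrades glutathione, was called higher in KO under tunicamycin, at 45.3 FPKM in KO and 39.8 in WT cells (0.19 in the authors' deposited table, q 0.000492). Of the secreted and surface proteins, VLDLR, a lipoprotein receptor, had 0.4996 FPKM in KO and 2.91 in WT control cells, 0.608 and 3.67 under cisplatin, and 4.73 and 10.4 under tunicamycin. It was lower in KO in each table that tested it, by log2 ratios of -2.54, -2.59 and -1.14 in the authors' deposited tables (q at most 0.000213). VLDLR shares 21526 bases with VLDLR-AS1 on the opposite strand.

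Among the synthesis enzymes, 4 were lower and 2 higher in KO of 9 tested in each of control, cisplatin and doxorubicin. Of all genes, 21.1%, 24.2% and 20.7% were lower there and 22.7%, 25.4% and 24.4% higher, so the count of 2 lay near that share. Under tunicamycin 5 of 9 were higher and 1 lower (all genes 27.2% and 22.1%). ASNS (chr7:97852118-97872542, minus strand), which makes asparagine from aspartate, had 9.75 FPKM in KO and 18.2 in WT control cells, 15.9 and 21.6 under cisplatin, 11.6 and 17.9 under doxorubicin, and 132 and 97.4 under tunicamycin. Its log2 ratio in the authors' deposited tables was -0.90, -0.44, -0.62 and 0.44, with q at most 0.00278, so KO was higher under tunicamycin and lower in the other tables. MTHFD2, of the mitochondrial folate pathway, had 87.6 FPKM in KO and 54.0 in WT control cells, 147 and 64.5 under cisplatin, 109 and 57.3 under doxorubicin, and 328 and 121 under tunicamycin. KO was higher throughout, by log2 ratios of 0.70, 1.19, 0.93 and 1.44 in the authors' deposited tables (q at most 0.000213).

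PSAT1, the aminotransferase of serine synthesis, had 47.1 FPKM in KO and 91.7 in WT control cells, 39.0 and 61.6 under cisplatin, 68.3 and 104 under doxorubicin, and 175 and 216 under tunicamycin. It was lower in KO throughout, by log2 ratios of -0.96, -0.66, -0.61 and -0.31 in the authors' deposited tables (q at most 0.000213). PSAT1 is also the 1 member in a shifted 10 Mb stretch, chr9:70000001-80000000. The 15 tested genes of the stretch, PSAT1 among them, had medians of -1.11, -0.36, -0.66 and -0.32. A stretch counted as shifted with medians of at least 0.3 in size, the same way in all 4 tables. This held for 28 of 282 stretches with 10 or more genes. A shift of the stretch and an effect on the single gene cannot be told apart here.

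SHMT2, which moves the serine carbon into folate, was higher in KO in 3 tables, at 220 FPKM in KO and 173 in WT control cells, 344 and 302 under doxorubicin, and 479 and 386 under tunicamycin (0.35, 0.19 and 0.31 in the authors' deposited tables). PYCR1, the last enzyme of proline synthesis, was lower in KO in 3 tables, at 40.8 FPKM in KO and 57.2 in WT control cells, 42.6 and 60.0 under cisplatin, and 53.3 and 71.7 under doxorubicin (-0.49, -0.49 and -0.43 in the authors' deposited tables). Under tunicamycin PYCR1 had 134 FPKM in KO and 130 in WT cells and did not pass (q 0.297). PSPH, which releases serine from phosphoserine, was lower in KO under cisplatin, at 17.0 FPKM in KO and 23.3 in WT cells, and under doxorubicin, at 10.3 and 16.9 FPKM (-0.45 and -0.71 in the authors' deposited tables). ALDH18A1, which begins proline synthesis, was lower in KO in control alone, at 45.2 FPKM in KO and 57.2 in WT cells. GPT2, the mitochondrial alanine aminotransferase, was higher in KO under tunicamycin alone, at 47.2 FPKM in KO and 31.9 in WT cells (0.56 in the authors' deposited table, q 0.000173). CTH, which makes cysteine from cystathionine, was higher in KO under cisplatin and tunicamycin, at 4.303 and 10.7 FPKM in KO and 2.74 and 8.36 FPKM in WT cells.

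Among the transporters, SLC1A4 (ASCT1, chr2:64988477-65023865, plus strand), a carrier of alanine, serine and cysteine, gave the largest difference of any called member. It had 0.571 FPKM in KO and 6.13 in WT control cells, 1.24 and 9.89 under cisplatin, 0.293 and 3.66 under doxorubicin, and 7.995 and 12.8 under tunicamycin. KO was lower in each table, with log2 ratios of -3.43, -2.99, -3.64 and -0.68 in the authors' deposited tables (q at most 0.000213). SLC1A4 lies in chr2:60000001-70000000, where the median over 38 tested genes was -0.51, -0.19, -0.36 and -0.17. That stretch did not count as shifted, since its medians under cisplatin and tunicamycin were under 0.3 in size. Its part in the SLC1A4 difference was not tested. SLC7A11 (xCT), the cystine importer, had 19.5 FPKM in KO and 7.72 in WT control cells, 11.8 and 5.18 under cisplatin, 5.90 and 5.71 under doxorubicin, and 49.5 and 20.7 under tunicamycin. KO was higher in 3 tables, by log2 ratios of 1.34, 1.19 and 1.26 in the authors' deposited tables, and did not pass under doxorubicin (q 0.648).

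SLC3A2 (4F2hc), the heavy chain that SLC7A11 and SLC7A5 need, had 433 FPKM in KO and 325 in WT control cells, 497 and 423 under cisplatin, 359 and 363 under doxorubicin, and 1212 and 826 under tunicamycin. It was higher in KO in all but the doxorubicin table (0.41, 0.23 and 0.55 in the authors' deposited tables). SLC7A5 (LAT1), which carries leucine and other large neutral amino acids, was higher in KO in control, at 520 FPKM in KO and 497 in WT cells, and under tunicamycin, at 638 and 582. It was lower in KO under cisplatin, at 210 FPKM in KO and 247 in WT cells, and under doxorubicin, at 363 and 387. The log2 ratios of SLC7A5 in the authors' deposited tables stayed within 0.23 of 0. SLC1A5 (ASCT2), the glutamine carrier, was higher in KO in control, at 247 FPKM in KO and 211 in WT cells, and under tunicamycin, at 569 and 484. SLC38A2 (SNAT2), which takes up small neutral amino acids, was lower in KO in control, at 48.9 FPKM in KO and 57.1 in WT cells. It was higher in KO under cisplatin, at 59.7 and 51.4 FPKM, and under tunicamycin, at 113 and 102.

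The tRNA ligases, which charge tRNAs with their amino acids, differed between tables. Under tunicamycin 6 of 8 were called higher and none lower in KO (all genes 27.2% and 22.1%), while under cisplatin none were called higher and 5 of 8 lower (25.4% and 24.2%). The tunicamycin excess was also seen in the other cytosolic ligases outside the 40 genes, with 9 called higher and 1 lower of 12. Of 17 mitochondrial ones 6 were higher and 0 lower, the higher count nearer the share of all genes. Under cisplatin the other cytosolic ligases had 4 higher and 2 lower of 12. The mitochondrial ones had 9 higher and 1 lower of 17, more higher than under tunicamycin. GARS (glycine) had 479 FPKM in KO and 298 in WT cells under tunicamycin, against 116 and 128 in control. Its log2 ratio in the authors' deposited tables was 0.68 under tunicamycin and -0.14 in control (q 0.000173 and 0.0112). WARS (tryptophan) had 468 FPKM in KO and 312 in WT cells under tunicamycin (0.59 in the authors' deposited table), and was also higher in KO in control and under doxorubicin. AARS (alanine) had 200 FPKM in KO and 144 in WT cells under tunicamycin, and 43.4 and 48.8 under cisplatin (0.47 and -0.17 in the authors' deposited tables). SARS (serine) had 259 FPKM in KO and 233 in WT cells under tunicamycin but was lower in KO in the other 3 tables, with log2 ratios of -0.26, -0.24 and -0.25 in the authors' deposited tables.

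CARS (cysteine) was lower in KO under cisplatin, at 25.0 FPKM in KO and 35.1 in WT cells (-0.49 in the authors' deposited table). It was higher in KO under doxorubicin, at 27.7 and 20.8 FPKM, and under tunicamycin, at 87.8 and 77.9 (0.41 and 0.17 in the authors' deposited tables). MARS (methionine) had 129 FPKM in KO and 70.7 in WT control cells, and 105 and 130 under cisplatin. It was thus higher in KO in control (0.86 in the authors' deposited table, q 0.00112) and lower under cisplatin (-0.30, q 0.0255), and its control level in WT was the lowest of its 8 group values. MARS is the gene that overlaps DDIT3. NARS (asparagine) was called under tunicamycin alone, at 86.3 FPKM in KO and 72.8 in WT cells (0.24 in the authors' deposited table). EPRS (glutamate and proline) was lower in KO under cisplatin, at 39.9 FPKM in KO and 47.8 in WT cells, and under doxorubicin, at 52.7 and 56.6.

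The drugs were set against control within each genotype as the log2 ratio of FPKM + 1, among genes at 1 FPKM or more in drug or control. There is 1 value per group and the groups lie in different tables, so the drug responses have no test. A gene was counted where it was at least 2-fold higher or lower on that scale, which understates the change of low genes. Over the 5030 genes at 5 FPKM or more in all 8 groups, the median response was 0.11 in KO and 0.07 in WT cells for cisplatin, -0.06 and -0.14 for doxorubicin, and -0.07 and -0.15 for tunicamycin.

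Under tunicamycin most members lay well above control in both genotypes. At least 2-fold higher were 30 of 37 members in KO and 27 of 36 in WT cells, beside 3.77% and 4.64% of all genes, and none were 2-fold lower, beside 2.16% and 2.33%. The median response of the members was 1.62 in KO and 1.26 in WT cells, beside -0.07 in each genotype over all genes. The 5 feedback and stress effectors all passed 2-fold in both genotypes, as did 8 of 9 synthesis enzymes and 6 of 8 tRNA ligases, while 5 of 6 transporters did so in KO and 3 of 6 in WT cells.

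**Figure D3:**
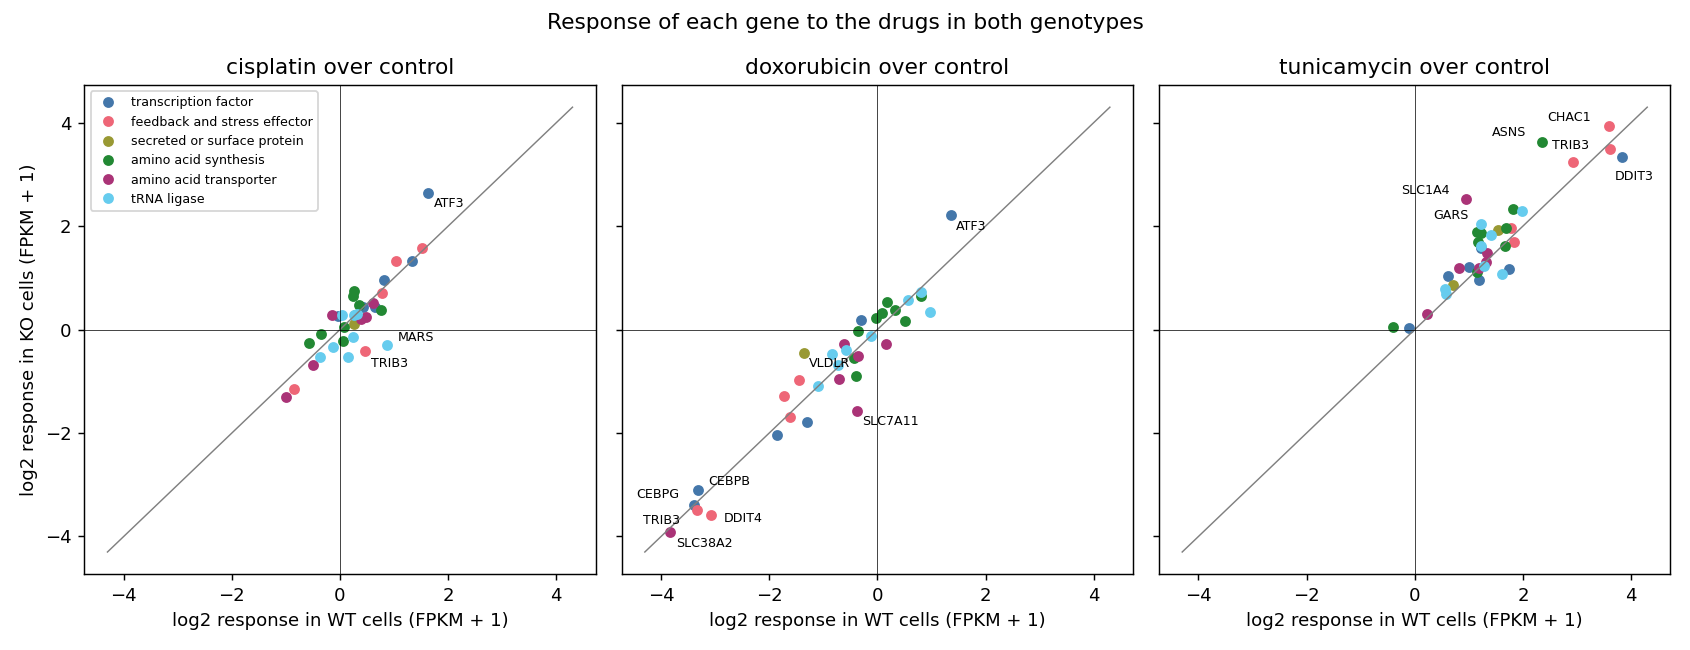
Log2 response (FPKM + 1) of each member in KO cells (vertical axis) against WT cells (horizontal axis) for the 3 drugs, coloured by role, with the line of equal response. Under tunicamycin nearly all points lie above 0 on both axes and most lie above the line, ASNS (3.63 in KO, 2.36 in WT) and SLC1A4 (2.52 and 0.96) farthest.

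CHAC1 had the highest response to tunicamycin in KO cells, with 45.3 FPKM against 2.03 in control, and 39.8 against 2.38 in WT cells (log2 response 3.93 in KO and 3.59 in WT). DDIT3 had the highest in WT cells, with 157 FPKM against 14.5 in KO control and 186 against 12.1 in WT control (3.34 and 3.83). TRIB3 stood at 203 FPKM against 17.1 in KO and 187 against 14.4 in WT cells (3.49 and 3.61). These 3 stress genes were the ones with the highest responses in WT cells. SESN2 followed, with 27.4 FPKM against 2.02 in KO and 25.9 against 2.54 in WT cells (3.24 and 2.92). ATF4 mRNA itself had 552 FPKM against 185 in KO and 473 against 202 in WT cells (1.57 and 1.22), less than the downstream factor DDIT3. GPT2 had 47.2 FPKM against 8.60 in KO and 31.9 against 8.35 in WT cells (2.33 and 1.82). WARS, the highest of the ligases, had responses of 2.29 in KO and 1.98 in WT cells.

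Some members stood outside this pattern under tunicamycin, with 7 under 2-fold in KO and 9 in WT cells. NUPR1 (0.95) and STC2 (0.86) were under 2-fold in KO cells. In WT cells CEBPG (0.998), SLC1A4 (0.96) and SLC38A2 (0.83) were. ATF3 had 7.94 FPKM against 3.34 in KO and 9.32 against 5.77 in WT cells (1.04 and 0.61), under 2-fold in WT. ATF5, ALDH18A1, SLC7A5, EPRS and NARS were under 2-fold in both genotypes. ATF5 had 28.7 FPKM against 28.0 in KO and 28.7 against 30.8 in WT cells. ALDH18A1 had 46.6 FPKM against 45.2 in KO and 43.1 against 57.2 in WT cells. SLC7A5, already among the highest members in control, had 638 FPKM against 520 in KO and 582 against 497 in WT cells. EPRS and NARS were the ligases under 2-fold, with responses of 0.69 and 0.79 in KO and 0.59 and 0.55 in WT cells.

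The response of the ligases was set beside the ligases outside the 40 genes. Of the 12 other cytosolic ligase genes measured, 1 was at least 2-fold higher under tunicamycin in KO cells (YARS, for tyrosine, 184 FPKM against 81.7) and 0 in WT cells, with medians of 0.03 in KO and 0.02 in WT. Of the 17 mitochondrial ligase genes none was, with medians of -0.08 in KO and -0.25 in WT cells. Of all genes, 3.77% in KO and 4.64% in WT cells were at least 2-fold higher, so the counts of both sets lay near that share. In WT cells 1 of the 12 other cytosolic ligases was at least 2-fold lower, beside 2.33% of all genes. The 8 ligases among the 40 genes had medians of 1.43 in KO and 1.25 in WT cells. The ligases among the 40 genes were picked as known ATF4 targets, and their values are a description of that choice, with no test.

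**Figure D4:**
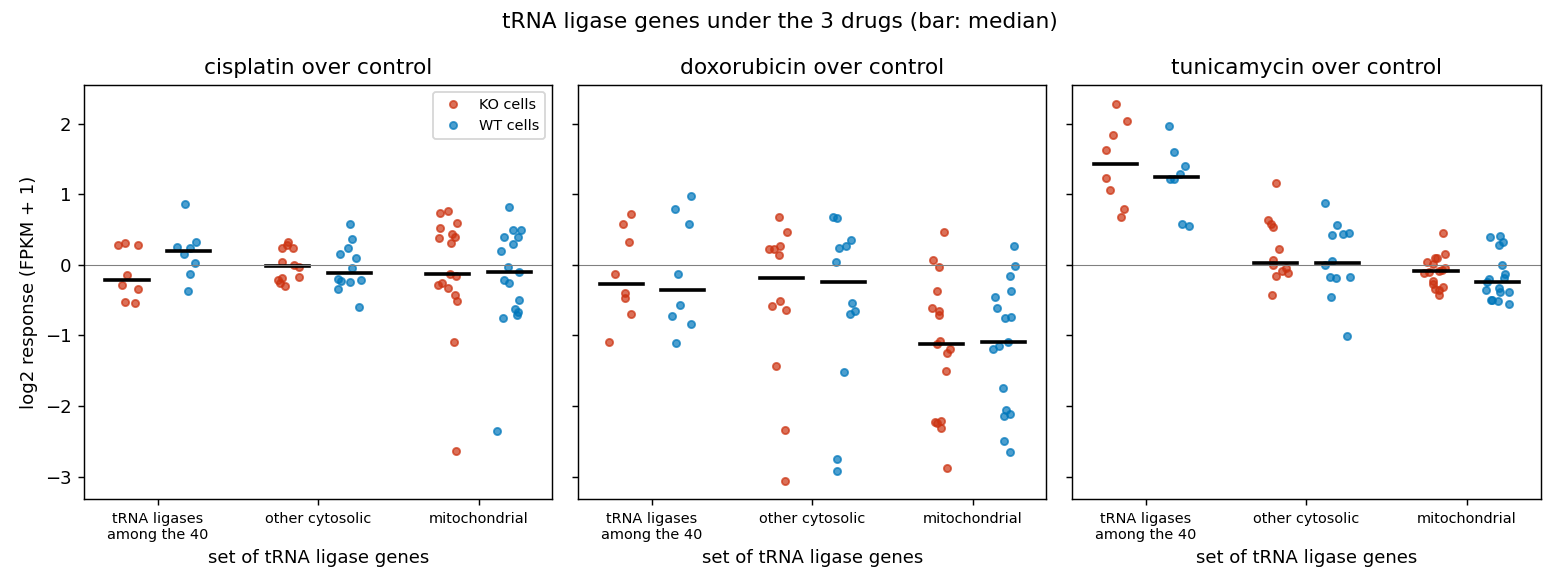
Log2 response (FPKM + 1) of each tRNA ligase gene to the 3 drugs, with KO (red) left of WT (blue) within each set and the set's median as a bar. Under tunicamycin the 8 ligases among the 40 genes lie above the other cytosolic and the mitochondrial ones (medians 1.43, 0.03 and -0.08 in KO).

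The responses were also split by the TGATGNAA match, among members with a promoter entry, as a description with no test. Under tunicamycin the medians were 1.36 with and 1.63 without a match in KO cells (12 and 19 genes), and 1.25 with and 1.39 without in WT cells (12 and 18 genes). Under cisplatin they were 0.27 with and 0.28 without in KO, and 0.35 with and 0.26 without in WT cells. Under doxorubicin they were -0.40 with and -0.98 without in KO, and -0.59 with and -1.20 without in WT cells. Members with a match thus had the less negative medians under doxorubicin in both genotypes, in the deposited scaling, and the slightly lower medians under tunicamycin.

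Between the genotypes, 27 of 37 members had a larger response to tunicamycin in KO than in WT cells, and the median of KO minus WT response was 0.24, beside 0.01 over all genes. With the median response of each genotype taken out, these values were 25 of 37 and 0.16, beside -0.07. The share of all genes with a larger response in KO cells was not computed in either case. ASNS had a difference of 1.27, from 132 FPKM against 9.75 in KO and 97.4 against 18.2 in WT cells. SLC1A4 had a difference of 1.56, from 7.995 FPKM against 0.571 in KO and 12.8 against 6.13 in WT cells. The SLC1A4 value depends on the pseudocount, being 2.54 at 0.1 FPKM and 0.54 at 5 FPKM. Both genes had a lower control level in KO than in WT cells. Differences of at least 1 were thus found in 2 members, beside 2.07% of all genes, and of -1 or less in none, beside 2.73%. GARS (0.82), MTHFD2 (0.75) and PSAT1 (0.64) came next, while CEBPB (-0.58), MARS (-0.54) and DDIT3 (-0.49) had the larger response in WT cells. The responses to all 3 drugs share the control group of their genotype, so they are not independent of each other.

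Under doxorubicin a large part of all genes lay below control in FPKM, and the members have to be read against that. At least 2-fold lower were 11 of 33 members in KO and 12 of 35 in WT cells, beside 42% and 41.3% of all genes, so the members' share lay below that of all genes. At least 2-fold higher was 1 member in each genotype, beside 4.16% and 4.39%. The direction depends on the scaling: with each group divided by its upper quartile of FPKM, which shifts the log2 ratio by up to 0.85 in KO and 0.79 in WT cells (less for low genes), 10 members in KO and 7 in WT were then 2-fold higher and 8 and 9 were 2-fold lower. All genes were then 24% and 19.6% higher and 29% and 28.3% lower. The median of the members was -0.52 in KO and -0.44 in WT cells as deposited, beside -0.74 and -0.72 over all genes. After that scaling the members' medians were 0.33 and 0.27, and the medians over all genes were not computed.

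The roles differed under doxorubicin, by counts that depend on the scaling. As deposited, 4 of 6 factors in both genotypes, and 4 of 5 effectors in KO and 5 of 5 in WT cells, were at least 2-fold lower. Of all genes, 42% in KO and 41.3% in WT cells were. Of the 9 synthesis enzymes measured none was, with medians of 0.23 in KO and 0.08 in WT cells. After scaling by the upper quartile, 4 of 6 factors in KO and 3 of 6 in WT cells were at least 2-fold lower. So were 3 of 5 effectors in KO and 4 of 5 in WT cells, beside 29% and 28.3% of all genes. Of the synthesis enzymes 5 of 9 in KO and 3 of 9 in WT cells were then at least 2-fold higher, with medians of 1.03 and 0.87, beside 24% and 19.6% of all genes. SLC38A2 was the lowest, at 2.30 FPKM against 48.9 in KO and 3.09 against 57.1 in WT cells (-3.92 and -3.83). DDIT4 stood at 5.31 FPKM against 74.9 in KO and 4.05 against 41.6 in WT cells (-3.59 and -3.07), and TRIB3 at 0.619 against 17.1 in KO and 0.531 against 14.4 in WT cells (-3.48 and -3.33). CEBPG had responses of -3.39 in both genotypes and CEBPB of -3.10 in KO and -3.32 in WT cells. These 5 genes stayed more than 2-fold lower after scaling by the upper quartile.

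ATF4 had 44.0 FPKM against 185 in KO and 55.2 against 202 in WT cells under doxorubicin (-2.05 and -1.85), the opposite of its response to tunicamycin. ATF3 went the other way from ATF4, at 19.1 FPKM against 3.34 in KO and 16.4 against 5.77 in WT cells (2.21 and 1.36). In the deposited scaling it was the 1 member at least 2-fold higher in either genotype. ATF5 stayed under 2-fold there (0.19 in KO and -0.31 in WT cells). After scaling by the upper quartile ATF5 was at 1.02 in KO and 0.46 in WT cells. ASNS, with 11.6 FPKM against 9.75 in KO and 17.9 against 18.2 in WT cells, stayed near its control level in the deposited scaling, and its response was 1.03 in KO and 0.74 in WT cells after scaling by the upper quartile. SLC7A11 differed most between the genotypes, at 5.90 FPKM against 19.5 in KO and 5.71 against 7.72 in WT cells (KO minus WT -1.19, or -0.92 at a pseudocount of 5 FPKM). No other member differed by 1 or more in either direction, beside 2.82% and 4.4% of all genes.

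Few members lay far from control under cisplatin. At least 2-fold higher were 4 of 34 members in KO and 4 of 35 in WT cells, beside 5.41% and 6.81% of all genes, and lower were 2 and 1, beside 7.25% and 4.63%. The 4 higher ones in both genotypes were ATF3, PPP1R15A, DDIT3 and CHAC1. ATF3 had 26.2 FPKM against 3.34 in KO and 20.1 against 5.77 in WT cells (2.65 and 1.64), and PPP1R15A had 152 against 50.3 in KO and 162 against 56.1 in WT cells (1.57 and 1.51). DDIT3 had 37.8 FPKM against 14.5 in KO and 32.3 against 12.1 in WT cells (1.32 and 1.34), and CHAC1 6.57 against 2.03 in KO and 5.95 against 2.38 in WT cells (1.32 and 1.04). None of 9 synthesis enzymes and none of 8 ligases reached 2-fold in either genotype, a count near the share of all genes.

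SLC7A5 was lower under cisplatin in both genotypes, at 210 FPKM against 520 in KO and 247 against 497 in WT cells (-1.30 and -1.01). DDIT4 was 2-fold lower in KO cells, at 33.1 FPKM against 74.9, and stood at 22.7 against 41.6 in WT cells (-1.15 and -0.85). ATF4 had 252 FPKM against 185 in KO and 273 against 202 in WT cells, responses of 0.44 and 0.43. The genotypes parted by at least 1 in ATF3 (KO minus WT 1.01, or 0.68 at a pseudocount of 5 FPKM) and in MARS (-1.15), beside 2.3% and 4.84% of all genes at 1 or more and at -1 or less. TRIB3 (-0.88) and CARS (-0.69) came next, each below its control level in KO and above it in WT cells.

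Genes upstream of ATF4 were read beside the members. Of 15 genes for eIF2 kinases and eIF2 machinery, KO exceeded WT in 4 calls and fell short in 4 in control, and 6 and 3 under cisplatin. Under doxorubicin it did so in 4 and 5 of 13 tested, and under tunicamycin in 6 and 2 of 15. Of all genes, 22.7% and 21.1% were higher and lower in control, and 25.4% and 24.2% under cisplatin. The shares were 24.4% and 20.7% under doxorubicin and 27.2% and 22.1% under tunicamycin. The counts of this list in control lay near those shares. EIF2AK1, which encodes HRI, was lower in KO in each table, at 20.7 FPKM in KO and 66.6 in WT control cells, 20.6 and 71.8 under cisplatin, 15.7 and 66.6 under doxorubicin, and 22.6 and 57.0 under tunicamycin. The log2 ratios in the authors' deposited tables were -1.69, -1.80, -2.08 and -1.33 (q at most 0.000213). It lies in chr7:1-10000000, where the median over 56 tested genes was -1.22, -1.25, -1.04 and -1.28, and EIF2AK1 shared the direction of that stretch. EIF2AK3, which encodes PERK, had 10.8 FPKM against 3.61 in KO and 11.9 against 2.998 in WT cells under tunicamycin (1.35 and 1.69), the only gene of this list at least 2-fold higher there, and no table called it different between KO and WT cells.

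Outside the 40 stood 27 further ATF4-linked genes. Of these, 16 of 26 measured in KO and 11 of 25 in WT cells were at least 2-fold higher under tunicamycin (all genes 3.77% and 4.64%). Their medians were 1.12 and 0.83. KO against WT, 15 were called higher and 5 lower of 25 under tunicamycin (all genes 27.2% and 22.1%). In control they were 7 and 11 of 26 (22.7% and 21.1%), and under cisplatin 7 and 10 of 26 (25.4% and 24.2%). Under doxorubicin they were 3 and 9 of 24 (24.4% and 20.7%). The counts of 7 higher, and of 5 lower under tunicamycin, lay near those shares. PCK2, mitochondrial phosphoenolpyruvate carboxykinase, had 54.8 FPKM against 4.47 in KO and 53.0 against 9.70 in WT cells under tunicamycin, a difference of 1.01 between the responses, with a lower control level in KO as in ASNS and SLC1A4. The largest called differences in control were those of ADM2, CEBPD and OSGIN1 (higher in KO, log2 ratios of 1.82, 1.66 and 1.65 in the authors' deposited table) and of KLHL24, SLC6A9 and PCK2 (lower in KO, -1.42, -1.36 and -1.12).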

How the data were processed

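Total RNA was made into mRNA libraries and sequenced in pairs of reads, per the labels' protocols. The submitters' processing notes name FastQC 0.11.5, Trimmomatic 0.35, STAR 2.5.3, Cufflinks, Cuffdiff and build hg38, with no settings. The authors deposited 4 tables of 60658 genes, each with 1 FPKM value per group, their log2 ratio of KO over WT without pseudocount, a test score, and a p-value with its q-value, per the file headers. The smallest p-value in the deposited tables is 5e-05. Depth per library is unknown. The 2 replicates, which the labels call biological, are hidden in each value. The labels do not say whether they came from separate cultures, so the p-values measure the spread between these samples only. A count test had been planned, but the files hold no counts, so the authors' test was used, with a gene called at a q-value of at most 0.05 among those they tested.

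From the FPKM values the response to a drug was computed as the log2 ratio of FPKM + 1 over control within a genotype, for genes at 1 FPKM or more in either, with no test. The step was tested on simulated data. The 40 genes and the other lists were chosen with earlier results of these data known. Given in full were called members with the largest changes and responses (up to 6 in each direction), and members called in the same direction in all 4 tables or in opposite directions. Of the other lists, counts and the 3 largest called changes in each direction were the rule, and YARS, EIF2AK1, EIF2AK3 and the PCK2 response were named after their values were seen. Coordinates come from GENCODE release 29 and sequences from RefSeq (GRCh38.p14). Alternatives were the q threshold, a 2-fold bound, filters on low FPKM, members in shifted 10 Mb stretches, pseudocounts and scaling. Python 3.11.15, pandas 2.3.3, numpy 2.4.6 and matplotlib 3.10.9 were used.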

Additional observations from a re-analysis of the deposited data

Results flagged for a closer look

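For 11 genes the KO over WT difference was called in opposite directions under different treatments. The difference between the treatments was itself not tested, since each table holds 1 value per group. The gaps between the authors' log2 ratios, the higher minus the lower, were 1.34 for ASNS, 0.82 for GARS and 0.41 for SARS (tunicamycin minus control), and 0.81 for TRIB3, 0.64 for AARS and 0.37 for SLC7A5 (tunicamycin minus cisplatin). They were 0.55 for ATF4 (tunicamycin minus doxorubicin), 0.47 for DDIT3 (cisplatin minus tunicamycin), 0.44 for SLC38A2 (cisplatin minus control), 1.16 for MARS (control minus cisplatin) and 0.90 for CARS (doxorubicin minus cisplatin).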

How the results depend on the processing

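With a 2-fold bound added to the q threshold, few members were called higher and lower in KO. They were 1 and 2 of 35 in control (all genes 6.03% and 5.66%), and 2 and 2 of 36 under cisplatin (4% and 6.3%). Under doxorubicin they were 1 and 1 of 33 (5.47% and 7.14%). Under tunicamycin they were 2 and 1 of 37 (4.59% and 5.59%), so most calls rest on small differences. A 1.5-fold bound on the drug responses was also used. Under cisplatin 8 of 34 members in KO and 10 of 35 in WT were then higher (all genes 18.9% and 19.9%). In WT 2 of 35 were lower under cisplatin (12.4%). Under doxorubicin 3 of 33 in KO and 4 of 35 in WT were higher (13.2% and 11%). At a pseudocount of 5 FPKM, 0 members in WT were lower under cisplatin (1.53% of all genes) and 0 higher under doxorubicin (1.82%). The tunicamycin median in KO was then 1.22. Centring gave 2 of 35 members higher under doxorubicin in WT (6.1% of all genes). Scaling by the upper quartile gave 10 of 33 higher under doxorubicin in KO and 7 of 35 in WT (all genes 24% and 19.6%). The medians were then 0.33 and 0.27, opposite in sign to those from the deposited scaling. The cause was not tested. The other 123 values of this kind under alternatives stayed within the bounds used. These were a ratio of counts of at most 1.5, or a change of a median of less than 0.2. Some of the 123 could not move. No member symbol was repeated, so summing repeated rows changed nothing. A gene under 1 FPKM in drug and control cannot reach 2-fold on the FPKM + 1 scale, so counts without that filter were fixed. Centring KO over WT moved the log2 ratios by 0.02 to 0.08 and turned no called member. No paired analysis was possible because the tables hold 1 value per group, and for the same reason no replicate could be left out.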
